A study of Mus musculus with 6 samples.

Results

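The cytosolic ribosomal protein genes were taken by symbol: Rpl or Rps followed by a number and an optional letter suffix, together with Rplp0, Rplp1, Rplp2 and Rpsa, without genes marked as pseudogenes (-ps) and without the S6 kinases. The rule gave 85 of the 34745 genes in the files, 33 named for the small and 52 for the large subunit, and used no measured value. RNA-seq had been done on primary hepatocytes of male FOXA2flox/flox mice, 12 weeks old per the labels, whose Foxa2 alleles are flanked by loxP sites. FOXA2f/f+CCl4 mice received AAV8-TBG-Control and FOXA2H-KO+CCl4 mice AAV8-TBG-Cre, a virus that expresses Cre from the hepatocyte promoter TBG, so that recombination is driven in hepatocytes and not in the other liver cells. Both groups carried the floxed alleles and were given CCl4, a hepatotoxin that causes liver fibrosis, at 0.25 ml/kg in 2 weekly injections over 4 weeks, starting 2 weeks after the virus, and hepatocytes were collected on the third day after the last dose by collagenase perfusion and low-speed centrifugation. There were 3 libraries per group, numbered 1, 2 and 4 in the labels, and none from mice without CCl4. The labels do not say that each library is a separate mouse, and p-values measure the spread between these libraries, which may be technical.

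Ribosomal proteins assemble with ribosomal RNA into a small subunit, which decodes the mRNA, and a large subunit, which joins the amino acids. Their genes are active in every cell, their products are used mostly in equal numbers, and their mRNAs begin with a C followed by a run of pyrimidines, the 5′ terminal oligopyrimidine (TOP) motif, through which mTORC1 and LARP1 control their translation. Hepatocytes export large amounts of plasma protein and hold many ribosomes. A test of mRNA levels such as this one does not see control of translation.

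The start sites of 63 of the 85 genes were found in RefSeq (GRCm38.p6). The 30 bases from 10 before to 20 after the start are printed 5′ to 3′ on the strand of the gene. The longest run of C and T is in capitals wherever it falls, so the capitals do not mark the TOP motif itself. Counted from the annotated start, the runs began at base −4 in Rpl27a and Rpl15, −7 in Rpl35, −10 in Rpl7a, −1 in Rps6 and 3 in Rpl13a. Shown are Rpl27a and Rpl35, which have the longest runs, Rpl15 and Rpl7a, which tie behind them, and Rps6 and Rpl13a, described among the results.
Rpl27a, chr7:109519185-109519214, plus strand: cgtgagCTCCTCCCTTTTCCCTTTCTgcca
Rpl35, chr2:39005112-39005141, minus strand: ccgCCCTTTCCTCTTTCTCTCgaaccaggc
Rpl15, chr14:18270967-18270996, minus strand: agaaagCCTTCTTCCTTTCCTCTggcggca
Rpl7a, chr2:26910797-26910826, plus strand: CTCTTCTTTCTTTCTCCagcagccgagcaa
Rps6, chr4:86857348-86857377, minus strand: gaagtcgggCCTCTTTTTCgtgacgcctcc
Rpl13a, chr7:45128726-45128755, minus strand: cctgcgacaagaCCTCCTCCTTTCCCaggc
A run of at least 8 pyrimidines within 25 bases of the start was present on the gene strand in 32 of the 63 members (50.8%), against 22.3% of all 27025 genes with a start site. Where RefSeq gave several starts, a gene counted once if any window held the run.

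In the 300 bases around the start (250 before and 50 after), the word CCGGAAG, a core of ETS family sites, was found on either strand in 25 of 63 members (39.7%, against 9.93% of all genes), and AAGATGG, a YY1 core, in 9 (14.3%, against 7.28%). The word TGTTTAC, a forkhead core of the kind FOXA proteins bind, was found in 1 member (1.59%, against 4.05% of all genes). These are matches of letters only, and the first 2 words can overlap, since CCGGAAG ends with the AAG that begins AAGATGG (Rps26 and Rps7 held both). The member with the forkhead word was Rpl41, which encodes the shortest ribosomal protein. Its 250 bases before the start (chr10:128549169-128549418, minus strand) are printed because FOXA2 is the factor removed, with the word, which begins 241 bases before the start, in capitals.
Rpl41: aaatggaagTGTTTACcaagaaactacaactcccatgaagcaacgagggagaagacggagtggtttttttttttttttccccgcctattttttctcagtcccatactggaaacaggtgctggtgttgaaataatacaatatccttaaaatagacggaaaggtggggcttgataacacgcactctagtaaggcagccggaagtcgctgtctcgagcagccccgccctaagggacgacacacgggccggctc
Rpl41 was at 130, 125 and 145 CPM, counts scaled to the same library total in FOXA2f/f and at 110, 142 and 138 CPM in FOXA2H-KO replicates 1, 2 and 4. The groups overlapped, and the log2 fold change was −0.15 (edgeR adjusted p = 0.983, standard error 0.17).

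Foxa2 itself had 442, 246 and 516 counts in FOXA2f/f and 28, 19 and 35 counts in FOXA2H-KO replicates 1, 2 and 4 (log2 fold change −3.85, Benjamini-Hochberg adjusted p = 0.0313 over 14417 genes in the quasi-likelihood test of edgeR). Libraries held from 20983455 to 28327765 counts. A list of 10 hepatocyte markers summed to between 123200 and 142000 CPM, with all 10 detected in every library. Markers of other liver cells were detected too and differed between libraries: 10 stellate cell and fibroblast markers summed to 1190, 941.9 and 3089 CPM in FOXA2f/f and to 2974, 1646 and 1696 CPM in FOXA2H-KO, and 10 macrophage markers to 1121, 505.4 and 2898 CPM and to 2112, 1870 and 1291 CPM. Endothelial markers (10 genes) ran from 195.5 to 879.2 CPM in FOXA2f/f and from 485.3 to 508.3 CPM in FOXA2H-KO, cholangiocyte markers (8 genes) from 169.5 to 366.1 and from 272.8 to 813 CPM, lymphocyte markers (10 genes) from 17.11 to 94.89 and from 44.6 to 85.34 CPM, neutrophil markers (10 genes) from 6.767 to 114.5 and from 9.452 to 18.61 CPM, and erythroid markers (8 genes) from 42.31 to 74.77 and from 29.32 to 40.12 CPM. Of the neutrophil markers, 7 of 9 tested had an unadjusted p under 0.05, all 7 lower in FOXA2H-KO, and 0 were called by edgeR (DESeq2 called 1). Of the cholangiocyte markers it was 3 of 7, with Krt7 and Spp1 higher (log2 fold change 1.02 each) and Prom1 lower (−1.80, called by DESeq2 and not by edgeR), and of the erythroid markers 1 of 5, Alas2 (−1.17). Alas2 was the largest part of every erythroid sum, at 32.5, 71.2 and 47.9 CPM in FOXA2f/f and 29.3, 19.7 and 25.5 CPM in FOXA2H-KO. The other erythroid markers tested had log2 fold changes of −0.04 (Hba-a1), 0.47 (Hba-a2), 0 (Hbb-bs) and 0.19 (Hbb-bt). No gene of the other marker lists had an unadjusted p under 0.05. No marker was at 0 in all 6 libraries. Their part in the results that follow was not tested, and in these bulk preparations fewer cells of a type and less RNA per cell cannot be told apart.

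As a group, the ribosomal protein genes took shares of the counts that overlapped between FOXA2f/f and FOXA2H-KO hepatocytes. They held 1.195%, 1.125% and 1.237% of all counts in FOXA2f/f and 1.089%, 1.233% and 1.185% in FOXA2H-KO replicates 1, 2 and 4. FOXA2H-KO replicate 1 was the lowest of the 6 and the groups overlapped. The means were 1.185% ± 0.0566 (SD, n = 3) and 1.169% ± 0.0733 (SD, n = 3), a difference of −0.0164 percentage points that was smaller than the spread within either group (exact two-sided permutation test, p = 0.7, where 3 libraries against 3 cannot go below 0.1). The difference turned to 0.0235 without FOXA2H-KO replicate 1 and to 0.00917 without FOXA2f/f replicate 4. The balance of the subunits was read as the small subunit's share. Small subunit genes made up 38.32%, 39.13% and 38.18% of the members' counts in FOXA2f/f and 37.51%, 38.68% and 38.66% in FOXA2H-KO (p = 0.7, same exact permutation test). TMM, edgeR's scaling, which sets the bulk of all genes equal between libraries, gave shares of 1.314%, 1.294% and 1.113% in FOXA2f/f and of 0.9699%, 1.212% and 1.194% in FOXA2H-KO for the 81 members tested, lowering FOXA2f/f replicate 4 and FOXA2H-KO replicate 1 most, and the group means became 1.24% ± 0.111 and 1.125% ± 0.135 (SD, n = 3 each, exact permutation p = 0.3).

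**Figure D1:**
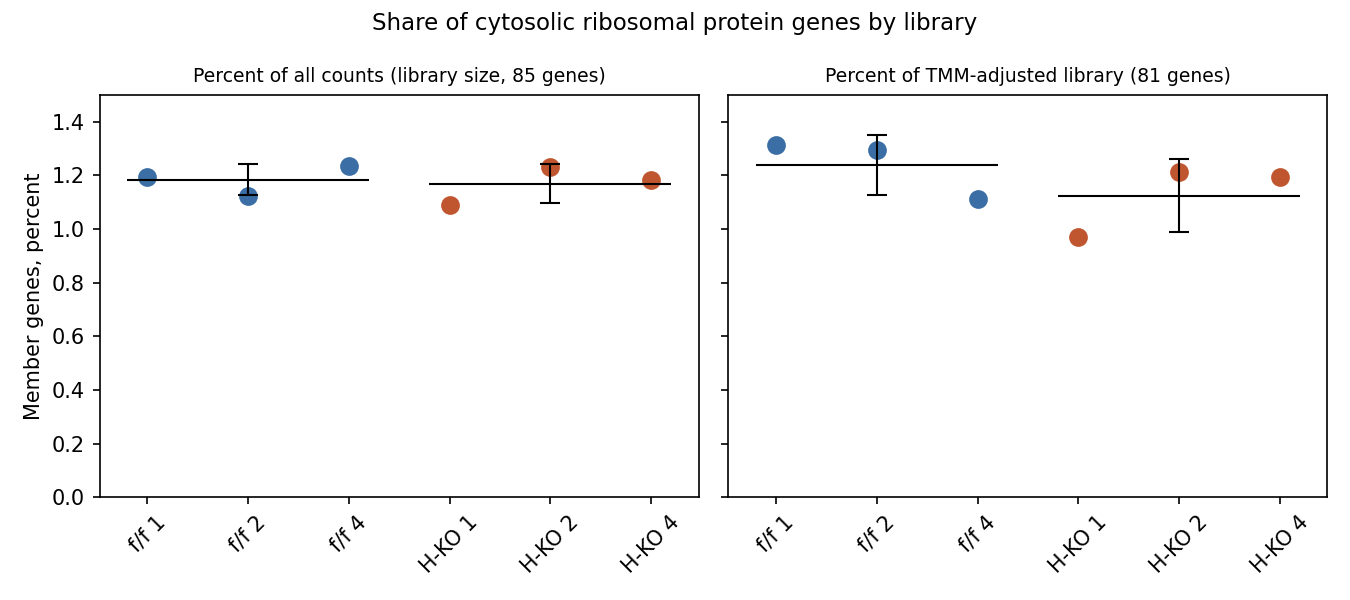
Share of the ribosomal protein genes in each library, in percent of all counts (left, 85 genes) and of the TMM-adjusted library (right, 81 tested genes). Points are libraries, horizontal lines group means and bars the SD of 3 libraries. The groups overlapped on both scales, and FOXA2H-KO replicate 1 was lowest on both.

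None of the members was called between the groups. Of the 85, 81 had enough counts to be tested (all but Rpl3l, Rpl10l, Rpl39l and Rpl24), and 0 of 81 reached an adjusted p under 0.05 with a fold change of at least 2, where 1 of all 14417 genes tested did (0.00694%), that gene being Foxa2. The smallest adjusted p among members was 0.879 with edgeR and 0.62 with DESeq2. An unadjusted p under 0.05 was reached by 1 member, against 5.17% of all genes, and 3.18% of all genes when only those lower in FOXA2H-KO are counted, as this member, Rps4l, was. The log2 fold changes ran from −0.65 for Rps4l to 0.24 for Rpl37rt, with standard errors from 0.12 to 0.50 and a median standard error of 0.16. In all 74 members with a mean of at least 500 counts they lay between −0.31 and 0.16.

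On the TMM scale 72 of the 81 members had a log2 fold change below 0, against 52.2% of all genes, and their median was −0.12 (small subunit −0.13, large subunit −0.11) beside −0.01 for all genes. This direction depended on the scale. Scaling by library size alone moved the median of all genes from −0.012 to 0.104 and that of the members from −0.12 to −0.006, with 44 of 81 members below 0, against 32.3% of all genes. The distance between the members and all genes was thus −0.108 on the TMM scale and −0.11 by library size. No member had all 3 FOXA2H-KO libraries beyond all 3 FOXA2f/f libraries on the TMM scale, against 5.96% of all genes lower and 4.54% higher. By library size 4 members were lower without overlap (Rps2, Rpsa, Rpl12 and Rps4l, against 3.24% of all genes) and 1 was higher (Rpl23, against 8.28%). In these 4 the nearest libraries, FOXA2f/f first, were close, at 219 and 218 CPM for Rps2 and 503 and 496 CPM for Rpsa. They were at 11.6 and 11.3 CPM for Rps4l, and both at 207 CPM after rounding for Rpl12. Rpl23, named because it was the one member higher, was at 188, 171 and 194 CPM in FOXA2f/f and at 196, 221 and 204 CPM in FOXA2H-KO.

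**Figure D2:**
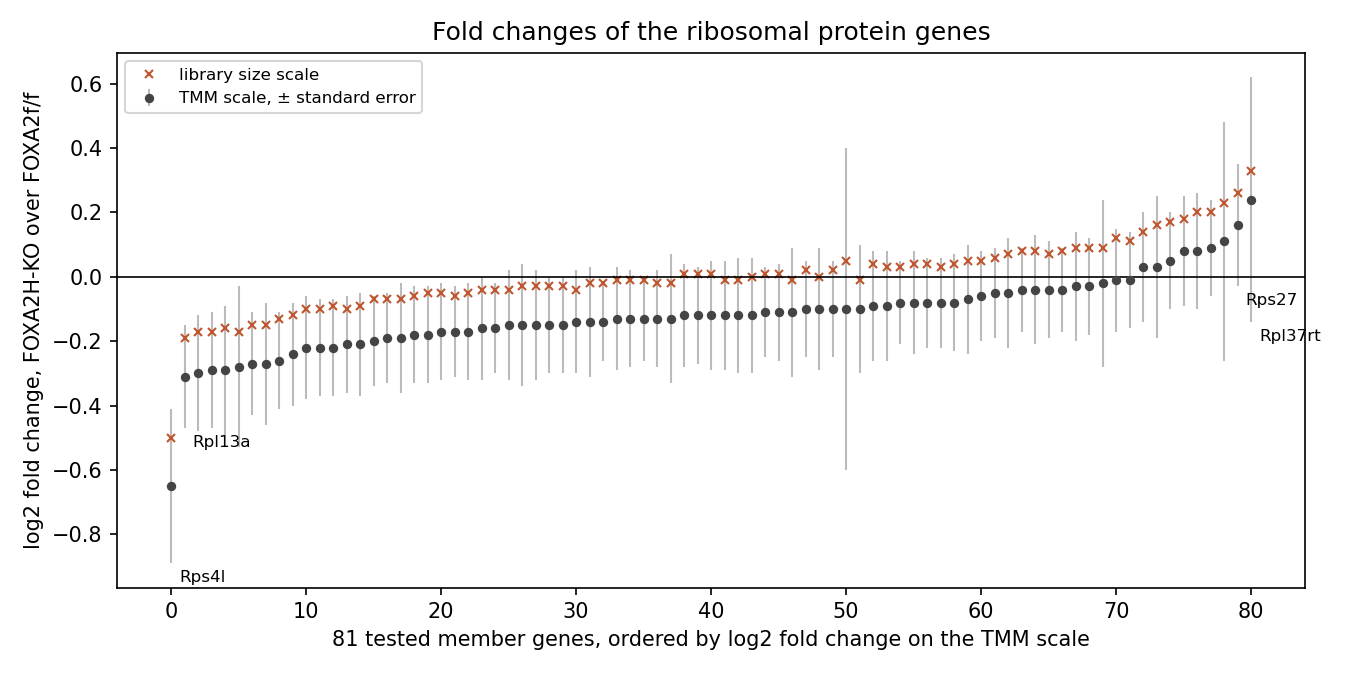
Log2 fold change, FOXA2H-KO over FOXA2f/f, of the 81 tested ribosomal protein genes in order of size. Grey points and bars give the TMM scale with its standard error, crosses the library size scale. On the TMM scale 72 genes lie below 0 and on the library size scale 44, so the direction of part of them flips with the scale, and Rps4l, at −0.65, is the lowest on both.

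The distance from all genes rested on 1 library. In FOXA2H-KO replicate 1, 80 of 81 members were below their own mean over the 6 libraries on the TMM scale, with a median deviation of −0.293 (log2). In the other libraries the median deviation was 0.153, 0.124 and −0.074 for FOXA2f/f replicates 1, 2 and 4 and 0.072 and 0.032 for FOXA2H-KO replicates 2 and 4, while the median over all genes stayed between −0.01 and 0.015 in all 6. By library size FOXA2H-KO replicate 1 was still the lowest, at −0.125 with 75 of 81 members below their mean, beside a median of 0.168 over all genes. Without this library the members' median log2 fold change was −0.012, beside −0.018 for all genes, and 46 of 81 members were below 0. Without any other single library the members' median stayed between −0.203 and −0.066. The 2 libraries lowest in ribosomal protein mRNA on the TMM scale, FOXA2H-KO replicate 1 and FOXA2f/f replicate 4, were also those with the highest sums of stellate cell and fibroblast markers (2974 and 3089 CPM) and of macrophage markers (2112 and 2898 CPM), whose part in this was not tested. By library size this match did not hold, since FOXA2f/f replicate 4 then had the highest share of the 6 libraries (1.237%) and a median deviation of 0.079.

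**Figure D3:**
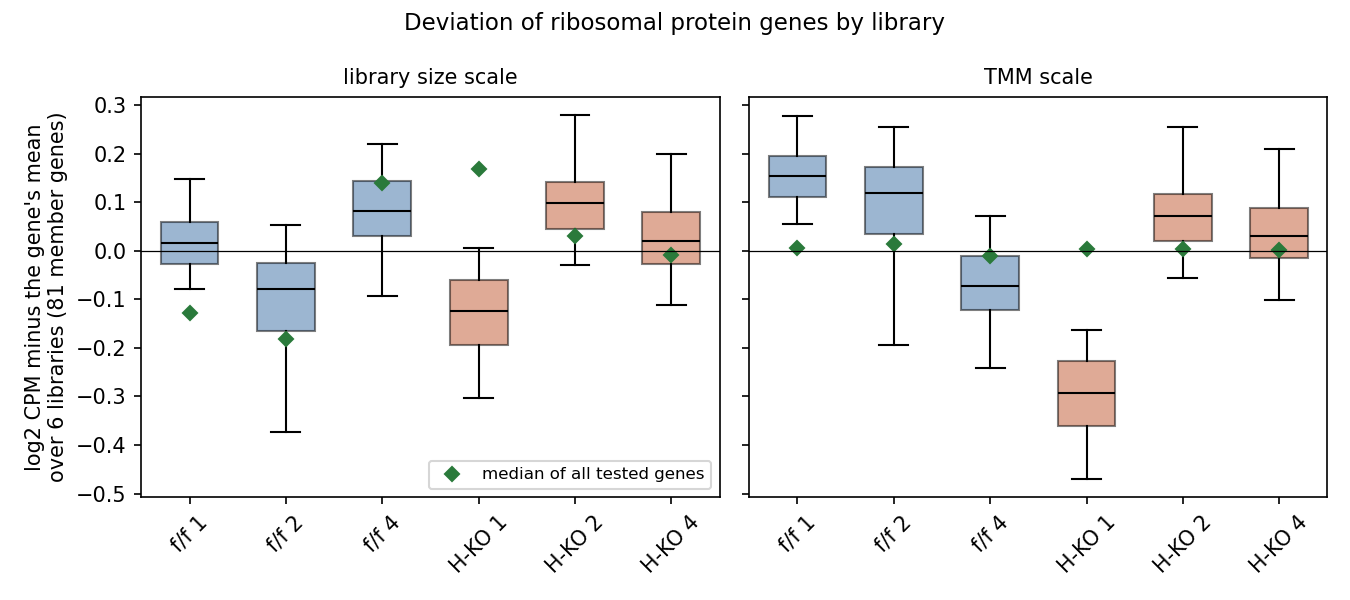
Deviation of 81 ribosomal protein genes from their own mean over 6 libraries, in log2 CPM (pseudocount 0.1), by library, scaled by library size (left) and TMM (right). Boxes span the quartiles with the median as a line, whiskers run from the 5th to the 95th percentile, and diamonds are the median of all 14417 tested genes. FOXA2H-KO replicate 1 has the lowest box on both scales, with medians of −0.125 and −0.293.

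Members with a mean of at least 500 counts varied less between libraries than all genes above that floor, members included. The sets were not matched in counts above it. Among the 74 with a mean of at least 500 counts, the SD of log2 CPM over all 6 libraries had a median of 0.113, where the 5783 genes with such a mean had a median of 0.207. With the members' own median taken out of each library, the SD of single members was between 0.023 for Rps7 and 0.223 for Rps27, with a median of 0.079. All genes with such a mean, with their own library median taken out, had a median SD of 0.187. The 7 tested members with fewer counts had SDs between 0.185 and 0.522, among them Rps27rt (0.522), Rps4l (0.365) and Rpl37rt (0.284). Rps7, a protein of the small subunit, stayed nearest to the rest. The 8 members with a coding sequence of at most 300 bases (Rpl37, Rpl37a, Rpl38, Rpl39, Rpl41, Rps21, Rps27 and Rps29) had a median SD of 0.143, and the 66 with longer ones a median of 0.076. Mean counts ran from 708 (Rpl38) to 3204 (Rpl41) in the short genes and from 799 (Rpl29) to 12305 (Rpl4) in the longer ones. The part of the counts in this difference was not tested, and the split at 300 bases was not planned in advance. Relative to the other members, the short genes were lowest in FOXA2f/f replicate 2 (median −0.10) and highest in FOXA2H-KO replicates 2 and 4 (0.12 and 0.10). The members with the highest counts, Rpl4, Rpsa and Rplp0, made up 12.2% of all member counts, and the 10 highest 30.3%.

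Among the proteins of the small subunit, Rps6, the substrate of the S6 kinases and a marker of mTORC1 activity when phosphorylated, was at 344, 301 and 346 CPM in FOXA2f/f and at 317, 355 and 368 CPM in FOXA2H-KO. The groups overlapped and the log2 fold change was −0.05 on the TMM scale and 0.07 by library size. Rpsa, which serves in the small subunit and is also known as the laminin receptor precursor, was at 503, 581 and 513 CPM in FOXA2f/f and at 437, 493 and 496 CPM in FOXA2H-KO. Its FOXA2H-KO libraries lay below the FOXA2f/f libraries by library size, with a log2 fold change of −0.29 (edgeR adjusted p = 0.983, standard error 0.20) that was −0.16 by library size. Rps2, near the mRNA entry channel, gave 219, 248 and 228 CPM against 187, 214 and 218 CPM, a log2 fold change of −0.30 (edgeR adjusted p = 0.973, standard error 0.18). FOXA2H-KO replicate 1 was the lowest library for both Rpsa and Rps2.

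Rps19, mutated in Diamond-Blackfan anaemia, was at 72.1, 68.8 and 72.3 CPM in FOXA2f/f and at 61.3, 70.1 and 68.5 CPM in FOXA2H-KO. Rps27a, made as a fusion with ubiquitin, was at 112, 108 and 116 CPM and at 99.5, 130 and 112 CPM. Rps12 was at 217, 204 and 216 CPM and at 184, 224 and 220 CPM. In all 3 the groups overlapped, and the log2 fold changes were −0.22, −0.09 and −0.14. Rps9, which was among the highest fold changes, gave 166, 143 and 174 CPM against 173, 196 and 188 CPM, a log2 fold change of 0.09 that was 0.20 by library size. Its groups overlapped as well.

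Rps26 was at 119, 118 and 127 CPM in FOXA2f/f and at 111, 127 and 94.8 CPM in FOXA2H-KO, so that replicates 1 and 4 were below every FOXA2f/f library and replicate 2 was not (log2 fold change −0.26, adjusted p = 0.964 from edgeR). Its pseudogene Rps26-ps1, with which Rps26 shares 16% of its exonic 50-base words, had 8, 6 and 6 counts in FOXA2f/f and 6, 8 and 224 counts in FOXA2H-KO replicates 1, 2 and 4. The sum of both genes was 119, 119 and 127 CPM in FOXA2f/f and 111, 127 and 105 CPM in FOXA2H-KO, still lowest in replicate 4. Rps26-ps1 was chosen after its values were seen.

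Among the proteins of the large subunit, Rpl5 and Rpl11, which with 5S ribosomal RNA bind the p53 regulator MDM2 when ribosome assembly is disturbed, had overlapping groups. Rpl5 was at 244, 203 and 247 CPM in FOXA2f/f and at 234, 249 and 231 CPM in FOXA2H-KO, and Rpl11 at 165, 146 and 157 CPM and at 136, 150 and 151 CPM. The log2 fold changes were −0.08 and −0.22 on the TMM scale and 0.04 and −0.10 by library size. Rpl13a, which can leave the ribosome to silence inflammatory mRNAs and is often used as a reference gene, was at 303, 282 and 316 CPM in FOXA2f/f and at 244, 295 and 254 CPM in FOXA2H-KO. With FOXA2H-KO replicates 1 and 4 below every FOXA2f/f library and replicate 2 among them, its log2 fold change was −0.31 (standard error 0.16, unadjusted p = 0.10, adjusted p = 0.952 from edgeR), the lowest among members of over 500 counts.

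Rpl12, part of the base of the stalk, was at 221, 207 and 208 CPM in FOXA2f/f and at 169, 207 and 189 CPM in FOXA2H-KO (log2 fold change −0.29, adjusted p = 0.967 from edgeR). The libraries at 207 CPM differed only before rounding. The stalk recruits the elongation factors, and its proteins Rplp0, Rplp1 and Rplp2 are known to work as a complex. Rplp0 was at 425, 378 and 468 CPM in FOXA2f/f and at 414, 423 and 440 CPM in FOXA2H-KO. Rplp1 was at 216, 236 and 225 CPM and at 179, 229 and 203 CPM. Rplp2 was at 79.5, 71.3 and 89.6 CPM and at 66.5, 84.3 and 83.8 CPM. The groups overlapped in each of the 3 stalk genes. Their log2 fold changes were −0.11, −0.27 and −0.14 on the TMM scale and 0.01, −0.15 and −0.04 by library size, so the sign of that of Rplp0 flipped with the scale.

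Rpl4, the member with the most counts, was at 514, 503 and 503 CPM in FOXA2f/f and at 494, 520 and 514 CPM in FOXA2H-KO. Rpl10a gave 163, 142 and 154 CPM against 130, 141 and 144 CPM, with a log2 fold change of −0.27 (adjusted p = 0.964 from edgeR). Rpl37 gave 40.4, 30.9 and 48.3 CPM against 38.7, 49.5 and 47.3 CPM, a log2 fold change of 0.08. In all 3 the groups overlapped.

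Several members have a paralog or a copy elsewhere in the genome. Levels between genes are given as the authors' FPKM, fragments per kilobase of the gene, scaled to the library total. These rest on the single length that the authors used for each gene, which for the 84 members with counts was between 0.134 and 3.54 times the exonic length in M21 (median 1.38) and exceeded the whole M21 gene in 32, so that FPKM levels between members are uncertain. In mouse, Rps4x is on chromosome X and Rps4l on chromosome 6 (chr6:148354656-148355598, plus strand). Rps4l was listed as a transcribed processed pseudogene in GENCODE M21, although the rule took it by its symbol. Over the aligned coding bases they were 80.1% identical, and their first 60 coding bases, with the 7 differing bases in capitals, show how far fragments of one can be told from the other.
Rps4x: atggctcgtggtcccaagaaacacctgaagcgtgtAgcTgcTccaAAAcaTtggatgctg
Rps4l: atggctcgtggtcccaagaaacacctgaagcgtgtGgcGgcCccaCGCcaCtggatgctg
Rps4x was at 143, 148 and 149 FPKM in FOXA2f/f and at 130, 145 and 145 FPKM in FOXA2H-KO, and Rps4l at 8.53, 7.62 and 6.69 FPKM and at 5.32, 6.55 and 4.21 FPKM. Every FOXA2H-KO library was below every FOXA2f/f library for Rps4l, but not on the TMM scale (16.2, 15.2 and 10.4 against 8.20, 11.1 and 7.35 TMM-scaled CPM). Its log2 fold change of −0.65 (standard error 0.24) had an unadjusted p of 0.0276 and an adjusted p of 0.879 from edgeR, and it lay between −0.84 and −0.45 over the alternatives. The ratio of Rps4l to Rps4x counts, which no scaling between libraries touches, was 4.78%, 4.12% and 3.61% in FOXA2f/f and 3.28%, 3.62% and 2.33% in FOXA2H-KO. FOXA2f/f replicate 4 and FOXA2H-KO replicate 2 were nearly equal, and the groups overlapped (exact two-sided permutation p = 0.2, adjusted p = 0.8 over the 4 paralog ratios computed).

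Rps27 and Rps27l, of which the latter is known as a p53 target, were 76.5% identical over the aligned coding bases. Their first 60 coding bases are shown with the 18 differing bases in capitals, as a pair that differs at many positions.
Rps27: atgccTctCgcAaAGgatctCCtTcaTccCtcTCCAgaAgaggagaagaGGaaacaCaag
Rps27l: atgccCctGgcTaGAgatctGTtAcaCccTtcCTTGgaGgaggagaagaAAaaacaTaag
Rps27l was at 34.0, 32.5 and 28.3 FPKM in FOXA2f/f and at 28.4, 39.2 and 38.2 FPKM in FOXA2H-KO, and Rps27 at 16.1, 11.7 and 17.4 FPKM and at 15, 19.8 and 19.4 FPKM. In every library Rps27l was thus above Rps27, in counts as well as in FPKM. All coding 50-base words of Rps27 also occurred in other genes, against 26.77% of those of Rps27l. How fragments that map to several genes were counted is not given in the sources used here, so this order is uncertain. The log2 fold changes of Rps27l and Rps27 were 0.03 and 0.16. The ratio of Rps27l to Rps27 counts was between 107% and 183% in FOXA2f/f and between 125% and 130% in FOXA2H-KO (exact permutation p = 0.7, adjusted p = 0.9 over the 4 ratios). The third copy, Rps27rt, has a coding sequence identical to that of Rps27, and its 45, 14 and 18 counts in FOXA2f/f and 28, 29 and 18 in FOXA2H-KO cannot be told from Rps27 within it. The same holds nearly for Rpl37rt and Rpl37 (99.7% identical) and for Rpl6l and Rpl6 (98.7%), and both copies are pseudogene types in M21. Rpl37rt had between 11 and 28 counts and Rpl6l between 14 and 28.

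Rpl36al and Rpl36a, 87.9% identical, were both well expressed. Rpl36al was at 39.3, 41.6 and 39.2 FPKM in FOXA2f/f and at 40.2, 45.3 and 44.8 FPKM in FOXA2H-KO, and Rpl36a at 26.5, 27.9 and 28.2 FPKM and at 25.1, 33.6 and 29.0 FPKM. Their count ratio was between 118% and 140% over the 6 libraries (exact permutation p = 0.6, adjusted p = 0.9 over the 4 ratios). Rpl22, which also acts in T cell development, was at 63.8, 55.9 and 66.5 CPM in FOXA2f/f and at 56.8, 65.2 and 57.1 CPM in FOXA2H-KO, and its paralog Rpl22l1, outside the symbol rule, had between 8.87% and 12.5% of the counts of Rpl22 (exact permutation p = 0.9, adjusted p = 0.9). In neither pair did the groups separate.

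The other paralogs were at or near 0. Rpl3l, known from heart and skeletal muscle, had 1 count in each of 2 libraries and 0 in the other 4, while Rpl3 was at 361, 317 and 359 CPM in FOXA2f/f and at 305, 316 and 332 CPM in FOXA2H-KO. Rpl10l, known from male germ cells, had 0 counts in all 6 libraries, while Rpl10, its X-linked counterpart, was at 322, 306 and 341 CPM and at 329, 326 and 327 CPM. Rpl39l, also known from testis, had from 0 to 3 counts, while Rpl39 was at 37.2, 34.8 and 36.0 CPM and at 34.5, 47.9 and 41.8 CPM. The libraries of the 2 groups overlapped in Rpl3, Rpl10 and Rpl39, with log2 fold changes of −0.24, −0.10 and 0.08, of which that of Rpl10 was 0.02 by library size.

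**Figure D4:**
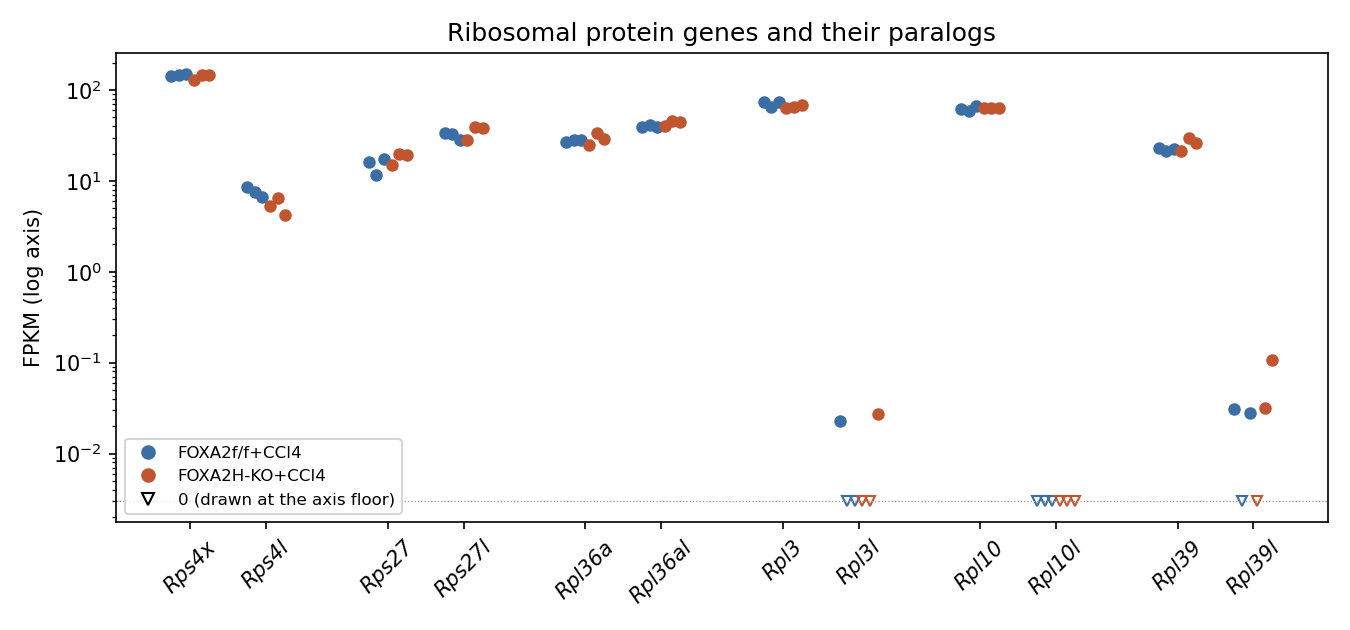
FPKM (log axis) of 6 ribosomal protein genes and their paralogs in the 6 libraries, FOXA2f/f in blue and FOXA2H-KO in orange. Open triangles on the dotted line are libraries with 0. Rps4l lies between 4.21 and 8.53 FPKM under Rps4x, Rps27l lies above Rps27 in every library, and Rpl3l, Rpl10l and Rpl39l have at most 3 counts in any library. Rps27 shares all its coding 50-base words with other genes, so its order with Rps27l is uncertain.

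The levels of the members spread widely in FPKM, from 0 to 443 with a median of 42.5, and 72 of the 85 had a mean of at least 10. The highest in FPKM were Rps12, at 457, 428 and 454 FPKM in FOXA2f/f and 386, 471 and 463 FPKM in FOXA2H-KO, and Rplp1, at 437, 477 and 454 FPKM and 362, 462 and 409 FPKM. These 2 did not differ beyond their spread. Rpl4 followed at 356.1 ± 4.39 FPKM in FOXA2f/f and 358 ± 9.65 FPKM in FOXA2H-KO, then Rpl13a at 293.6 ± 16.7 and 257.9 ± 26.3 FPKM and Rpsa at 286.1 ± 22.9 and 255.4 ± 17.6 FPKM (SD, n = 3 each), the last 2 within their spread of each other. The 10 highest members were the same 10 genes in both groups. This order depends on the lengths: by counts alone Rps12 was the 18th and Rplp1 the 16th of the members, by counts per coding base they were the 6th and the 2nd, and 5 of the 10 highest by FPKM were among the 10 highest by counts per coding base.

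Among the lowest stood genes of standard proteins of the large subunit. Rpl24 had 4, 0 and 2 counts in FOXA2f/f and 1, 6 and 4 counts in FOXA2H-KO. Rpl35 was at 3.31, 3.22 and 3.71 FPKM and at 2.28, 3.14 and 3.67 FPKM. Rpl23a was at 2.84, 3.36 and 3.34 FPKM and at 2.62, 3.52 and 4.02 FPKM. The groups overlapped in all 3 genes. In the M21 annotation these 3 had the largest share of exonic bases inside other genes: 46.99% of Rpl24 (Gm28037), 66.16% of Rpl35 (Wdr38 and Arpc5l) and 62.34% of Rpl23a (Tlcd1 and Snord42b), with 35.4% in the next member. Gm28037 had 0 counts in every library. How the counting treated fragments that fall in several genes is not given in the sources used here, so these 3 values are uncertain as levels of the genes.

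Most members also share sequence with copies elsewhere. Of the 50-base words in their annotated transcripts, a median of 23.8% occurred in another gene, against 0.634% over all tested genes. For the coding sequence the median was 90.2% over 82 coding members, and all coding words were shared in 27 members. At least 1 word was shared with an annotated pseudogene by 82 members, and Rps25 shared words with 286 genes. The 27 members whose coding words were all shared had a median of 41.7 FPKM and the 40 with under 90% a median of 43.8 FPKM. These are different genes with uncertain lengths, and the members in between are left out. The medians therefore cannot show what shared sequence did to the levels. In the 13 tested members with under 10% of their transcript words shared, the median log2 fold change was −0.15 on the TMM scale.

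Genes that make, use or regulate ribosomes were read from lists on the same fit, and 0 genes of these lists were called by edgeR or by DESeq2. Of all genes tested, 52.2% were below 0 on the TMM scale and 32.3% by library size. Of the 4 ribosomal protein genes tested under other names, 3 had a log2 fold change below 0 (median −0.166, and −0.042 by library size). The lowest value was that of Rack1, a scaffold on the small subunit (−0.29, adjusted p = 0.951 from edgeR). Rack1 was at 296, 303 and 318 CPM in FOXA2f/f and at 267, 277 and 275 CPM in FOXA2H-KO, and its groups did not overlap by library size or on the TMM scale. Rps3a1 had 7423, 5573 and 8268 counts in FOXA2f/f and 6136, 7067 and 6003 counts in FOXA2H-KO, and its groups overlapped. Of 8 listed paralogs, 6 of them members, 5 were tested and 4 were below 0 (median −0.194, and −0.069 by library size). Of these, 1, Rps4l, had an unadjusted p under 0.05. Of 20 elongation factor and other TOP mRNA genes, Rack1 among them, 15 were below 0, but their median was −0.027 on the TMM scale and 0.093 by library size. Eef1a1, the elongation factor that brings aminoacyl-tRNA, had 91433, 72399 and 110606 counts in FOXA2f/f and 87698, 84855 and 78924 in FOXA2H-KO (log2 fold change −0.15), and Eef2, the translocation factor, had a log2 fold change of −0.22, with groups that did not overlap on the TMM scale and did by library size (1160, 1180 and 1440 against 1220, 1170 and 1140 CPM).

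Ribosome biogenesis factors (44 genes, 31 below 0) had a median of −0.072, and the mTORC1 and translation control list (19 genes, 10 below 0) a median of −0.051, both above 0 by library size (0.061 and 0.078). None of the genes in either list had an unadjusted p under 0.05. Larp1, which binds the TOP motif, had a log2 fold change of 0.08, and Mtor one of 0.10. Eif4ebp1, a repressor of cap-dependent translation, had one of −0.28 (adjusted p = 0.983 from edgeR). Of the 10 genes for S6 and related kinases, 9 were tested and 6 were below 0 (median −0.146, 0 with an unadjusted p under 0.05). By library size their median was −0.016.

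The nuclear genes named for proteins of the mitochondrial ribosome, 79 by symbol with the pseudogene Mrps36-ps3 among them, had no called gene either. Of 77 tested, 64 were below 0 on the TMM scale (median −0.138) and 40 by library size (median −0.012). An unadjusted p under 0.05 was reached by 5.17% of all genes and by 2 of the 77. These were Mrps27, at 11.1, 12.6 and 12.7 CPM in FOXA2f/f and 9.67, 10.2 and 8.95 CPM in FOXA2H-KO (log2 fold change −0.46, adjusted p = 0.846 from edgeR), and Mrpl52, at 18.2, 16.8 and 20 CPM and 26.2, 25.9 and 22.8 CPM (0.32, adjusted p = 0.918). Both separated the groups by library size, in opposite directions, and were chosen after their values were seen. Of the 21 ribosomal protein pseudogenes marked -ps, 8 were tested and 7 were below 0 on the TMM scale (median −0.121, and −0.017 by library size).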

How the data were processed

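Per library, the authors deposited a fragment count for each of 34745 Ensembl genes, without normalization, and an FPKM value that the authors derived from these counts, the total count and 1 length per gene. The submitters' processing notes name CASAVA 1.8, TopHat2 2.1.0, HTSeq, edgeR and the mm10 build. Annotation, counting mode and the treatment of multi-mapped fragments are not given in the sources used here. The TruSeq kit was poly-A selected and does not mark strand. FPKM was used for levels between genes and counts for all tests. Groups and replicate numbers came from the labels.

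The tests were run on the counts with edgeR 4.0.16 under R 4.3.3 (filterByExpr, which kept 14417 genes, TMM and the quasi-likelihood test, no replicate block). A call needed a fold change of at least 2 and an adjusted p (Benjamini-Hochberg) under 0.05, the thresholds of the study. At these thresholds the study reported many more genes between the 2 groups than edgeR or DESeq2 called here. The reason for this gap was not tested. A standard error is the log2 fold change over the root of F. CPM are counts over the library total unless TMM is named. Alternatives were DESeq2 1.42.0, limma 3.58.1 on log2(FPKM + 1), other scalings and filters, the replicate block and each library left out. The biological coefficient of variation was 25.3%. On simulated counts of 14182 genes for this comparison, edgeR called 101 of 200 genes changed 2-fold or 4-fold, and 7 unchanged genes. Of the 115 genes changed 4-fold it called 83, so most genes changed 2-fold were not called. No replicates were near-identical (chi-square at least 35.9 times its degrees of freedom).

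The members, lists and tests were chosen with earlier results of these data known. Genes named with values are 24 fixed by role, the 5 highest and 5 lowest fold changes, the 5 smallest p-values, and the 5 highest and 5 lowest FPKM among tested members; other genes named are marked, belong to a list, or overlap a member. The paralog ratios, the restriction to members with little shared sequence and the minimum of 500 counts were added after seeing the data. Start sites and their sequences are RefSeq's on GRCm38.p6. Transcripts, overlaps and coding sequences are GENCODE M21 on GRCm38. Words are 50 bases, on either strand. Some genes are not reported here. A table of the whole series held the same values and was not used.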

Additional observations from a re-analysis of the deposited data

How the results depend on the processing

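The count of called members was 0 in every alternative with an adjusted p (other scalings and filters, DESeq2, limma, replicate block, each library left out, no fold threshold) and with an unadjusted p and the fold threshold, while DESeq2 called 75 of all genes where edgeR called 1. With an unadjusted p and no fold threshold it was 1 member. The median log2 fold change of −0.12 was between −0.20 and −0.01 with a library left out, −0.13 with the replicate block, −0.01 with library size alone or limma, −0.15 and −0.12 in members with little shared sequence and with at least 500 counts (both added later), and 0.01 when scaled to the members' own sum, which sets them near 0 by construction. The difference in share of −0.0164 percentage points was between −0.0486 and 0.0235 with a library left out, reversed to 0.0167 percentage points on summed FPKM and 0.00117 in members with little shared sequence (the cause was not tested), and kept its direction with other denominators, genes under other names or without the 3 highest members. None of these gave the share an exact permutation p under 0.4. Same-numbered libraries did not deviate together (correlations −0.0688, 0.0262 and −0.226). With 3 libraries per group this cannot exclude that the numbers pair them. With the numbers as a block the share differed by −0.0164 (exact sign-flip p = 1). Set against the spread between replicates, 501 of the log2 fold changes of named members under the alternatives counted as the same. The other 8 counted as moved, in Rpl10, Rpl5, Rplp0 and Rps27rt. None of these 8 was a call. Between 0 and 6 counts per library limit what can be said of Rpl3l, Rpl10l, Rpl39l and Rpl24.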
